A study of Mus musculus with 4 samples.

Results

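The 10 genes described here encode the surface and secreted ligands through which a macrophage stimulates or restrains a T cell or another phagocyte, together with 2 receptors of the same exchanges (CD40 and TIM-3). They were chosen by name (Cd274, Pdcd1lg2, Cd80, Cd86, Cd40, Vsir, Havcr2, Icosl, Lgals9 and Cd47) and looked up by Ensembl identifier. All 10 were found among the 53139 loci of the table, each as a locus holding a single gene, and all 10 had been tested by the authors' differential expression program, Cuffdiff. The list is defined by names and not by a cut on values. However, it and the lists around it were chosen with earlier results of these data known. Their counts set beside all loci tested therefore only describe the lists.

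The cells were tumour macrophages of wild-type genotype from the mouse MCA fibrosarcoma (9609), with 9609 parent as the labelled cell line. In vitro, 2 samples received MEK1-hi exosomes and 2 received MEK1-low exosomes, which the labels also mark as GFP. Exosomes are small vesicles released by cells, and MEK1 is the kinase that activates ERK. All 4 samples received exosomes, so each difference below is relative to MEK1-low exosomes and not to untreated macrophages, and MEK1 content cannot be told apart from the GFP marking. The labels used here give neither the dose and duration of treatment nor the cells that made the exosomes, and whether samples are separate cultures or animals is not stated.

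T cell activation needs, beside the antigen receptor signal, a second signal from ligands of the B7 family on the presenting cell. CD80 and CD86 engage CD28 to stimulate and CTLA-4 to inhibit, ICOS ligand engages ICOS on activated and follicular helper T cells, and PD-L1 and PD-L2 engage the inhibitory receptor PD-1. VISTA, encoded by Vsir, is an inhibitory relative abundant on myeloid cells, and CD40 receives the CD40 ligand of helper T cells and raises B7 ligands in turn. Galectin-9 has been reported as a ligand of the inhibitory receptor TIM-3, which myeloid cells carry too, while CD47 binds SIRP alpha on phagocytes and restrains engulfment. In tumours, macrophages are a main source of PD-L1. Interferon gamma and NF-kB signalling drive PD-L1 transcription, and in human and mouse tumour cells MEK signalling is known to stabilise its transcript through AU-rich elements read by tristetraprolin.

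The sequences below belong to the gene that passed the test, Icosl, and to the neighbouring PD-1 ligand genes Cd274 and Pdcd1lg2, whose values were both lower without passing it. Each is the 250 bases before the RefSeq transcript start (GRCm38.p6), written 5′ to 3′ on the plus strand. The RefSeq start of Icosl lies inside its GENCODE gene, so its window covers the first GENCODE bases too. The stretches are chr10:78069118-78069367 for Icosl, chr19:29367188-29367437 for Cd274 and chr19:29410669-29410918 for Pdcd1lg2. Capitals mark matches, on either strand, to a loose form of the NF-kB site: GGG, any 5 bases, then CC.
Icosl: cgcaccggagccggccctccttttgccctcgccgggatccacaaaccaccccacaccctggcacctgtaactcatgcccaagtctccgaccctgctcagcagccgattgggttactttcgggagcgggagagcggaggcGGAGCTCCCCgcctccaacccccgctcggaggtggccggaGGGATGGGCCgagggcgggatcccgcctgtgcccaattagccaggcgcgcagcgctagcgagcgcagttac
Cd274: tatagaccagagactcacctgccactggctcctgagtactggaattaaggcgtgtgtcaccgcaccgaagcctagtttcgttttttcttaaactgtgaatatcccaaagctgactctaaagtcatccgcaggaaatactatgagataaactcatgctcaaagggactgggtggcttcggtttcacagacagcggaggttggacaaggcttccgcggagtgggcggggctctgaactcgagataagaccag
Pdcd1lg2: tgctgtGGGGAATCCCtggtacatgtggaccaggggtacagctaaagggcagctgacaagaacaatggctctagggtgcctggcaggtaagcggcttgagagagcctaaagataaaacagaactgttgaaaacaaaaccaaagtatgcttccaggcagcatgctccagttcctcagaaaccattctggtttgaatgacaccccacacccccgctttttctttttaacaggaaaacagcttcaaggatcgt
The Icosl window held 2 such matches, the Pdcd1lg2 window 1 and the Cd274 window 0. This pattern stood in 45.4% of the 27025 promoter windows of the same length, so a match is common. The other motifs searched were the core of the interferon-stimulated response element (GAAA, any 2 bases, then GAAA, in 3.04% of windows), TTCNNNGAA (the gamma-activated site, in 7.18%), TGANTCA (AP-1, in 6.87%) and CCGGAAGT (an ETS site, in 2.93%), on both strands and with no match of different motifs overlapping in these 3 windows. None of these 4 was matched in the 3 windows. Of the 8 members with an entry in the RefSeq table, Lgals9 matched the interferon-response core 55 bases before its start, and Cd80 and Havcr2 matched AP-1 at 42 and 200 bases before theirs. The Icosl window was rich in G and C, at 68.8%, a share reached or exceeded by 10.6% of windows, whose median was 52.0%. A further 30 bases come from the 3′ UTR of the Cd274 transcript (chr19:29387189-29387218, GRCm38, plus strand, from GENCODE M21), with the AU-rich pentamer ATTTA in capitals. In tumour cells, MEK signalling is known to act on PD-L1 transcripts through AU-rich elements. Whether it did so in these macrophages was not tested.
Cd274 3′ UTR site: cgccctttttATTTAatgtatggatATTTA
The Cd274 3′ UTR of 2683 bases held 11 ATTTA pentamers, and 5.07% of tested genes with an annotated 3′ UTR held at least as many. This share takes no account of 3′ UTR length, and a longer 3′ UTR has room for more pentamers. The longest Icosl coding transcript held 1, that of Cd47 held 8, that of Cd40 held 7, and those of Cd86 and Lgals9 held 0.

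Values are the authors' FPKM, fragments per kilobase of transcript scaled to library size, with 1 value for each group. Because no values per sample were used, no spread between samples accompanies any level, and every p or q below is that of the authors' own test. Fold changes are MEK1-hi over MEK1-low. A locus was called where q was under 0.05, which held for 309 of the 12648 loci tested (2.44%), 95 of them higher (0.751%) and 214 lower (1.69%). The smallest p that Cuffdiff gave was 5e-05, shared by 181 loci, which all carry q = 0.00349. That q is a floor and does not rank the loci that share it. No read counts were used, so the depth behind these FPKM values is unknown. Macrophage markers were abundant, led by Lyz2 at 13148 FPKM with MEK1-hi and 12303 FPKM with MEK1-low exosomes, and 1 of 12 was called (Cd14, lower). Markers of other cells were scarce. The summed level was 1.69 FPKM with MEK1-hi and 1.82 FPKM with MEK1-low exosomes over 9 T cell markers, 2.12 FPKM with MEK1-hi and 2.25 FPKM with MEK1-low exosomes over 5 B cell markers, 1.61 FPKM with MEK1-hi and 1.87 FPKM with MEK1-low exosomes over 5 NK cell markers, 5.12 FPKM with MEK1-hi and 6.15 FPKM with MEK1-low exosomes over 8 fibroblast markers, and 1.20 FPKM with MEK1-hi and 1.62 FPKM with MEK1-low exosomes over 4 endothelial markers. The 8 neutrophil markers summed to 53.5 FPKM with MEK1-hi and 73.5 FPKM with MEK1-low exosomes, almost all of it S100a8 and Csf3r, while the table lists 0 for Elane, Mpo, Retnlg, Ly6g and S100a9 in either group. Most of these markers had not been tested: those tested were 1 T cell, 1 B cell, 1 NK cell, 2 neutrophil, 4 fibroblast and 2 endothelial markers. Cuffdiff called 0 of those tested in these 6 cell types. S100a8 was the 1 with an unadjusted p under 0.05, at 22.6 FPKM with MEK1-hi and 35.5 FPKM with MEK1-low exosomes. Beside these counts, 2.44% of all loci tested were called and 8.66% had an unadjusted p under 0.05. The part of these cells in the ligand values was not tested.

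Of the 10 ligand genes, 1 rose with MEK1-hi exosomes, 0 fell, and the other 9 did not pass the test, beside 2.44% of all loci called. The 1 called gene was Icosl. Since the RNA came from whole cultures, fewer cells making a transcript and less transcript per cell cannot be told apart. Values were higher in 6 (Icosl, Cd40, Lgals9, Cd47, Vsir and Havcr2) and lower in 4 (Pdcd1lg2, Cd274, Cd80 and Cd86), against 50.2% higher and 49.8% lower among all loci tested, and this split was the same on the TPM and upper-quartile scales. Their median log2 difference was 0.04 on the log2(FPKM + 1) scale, beside 0.00 over all loci tested. The sum of the 10 levels was 523 FPKM with MEK1-hi and 518 FPKM with MEK1-low exosomes. Vsir and Lgals9 made up 31.3% and 25.6% of that sum with MEK1-hi exosomes, and 30.4% and 23.7% with MEK1-low exosomes.

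**Figure D1:**
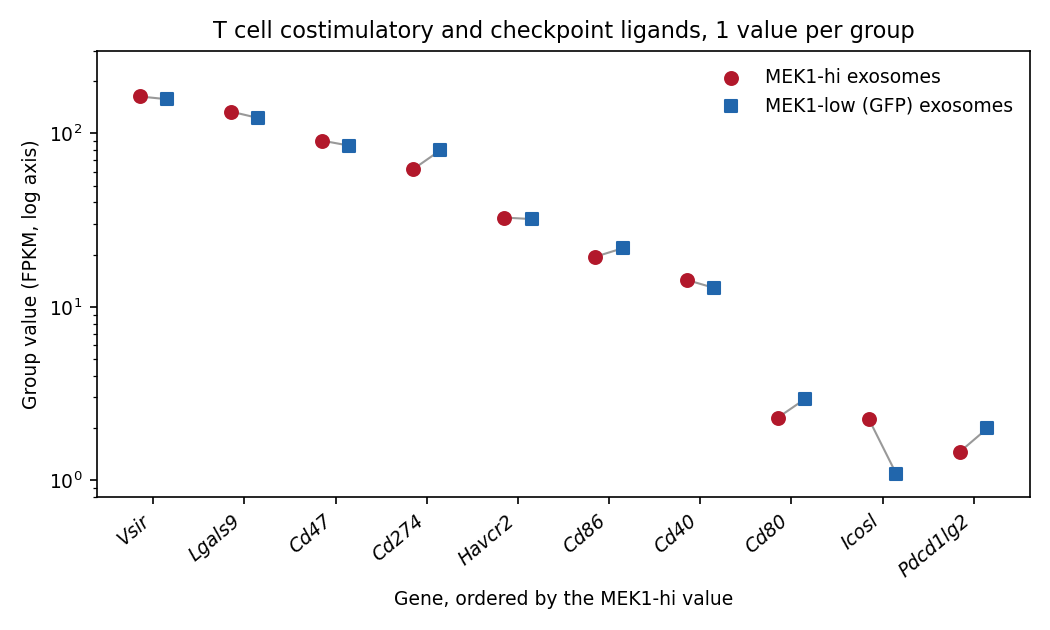
Group values of the 10 ligand genes in FPKM on a log axis, with MEK1-hi (red circle) left of MEK1-low (blue square) for each gene and 1 value per group. Icosl, at 2.25 FPKM with MEK1-hi and 1.09 FPKM with MEK1-low exosomes, has the steepest line, and the order of the other 9 genes is the same in both groups.

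Icosl (ENSMUSG00000000732), the ligand of ICOS, was the called gene. It lies on chromosome 10 from 78069302 to 78083913 (mm10, plus strand), and its longest coding transcript has 7 exons and encodes 322 residues. Its level was 2.25 FPKM with MEK1-hi and 1.09 FPKM with MEK1-low exosomes, a rise of 2.07-fold or 1.05 on the log2 scale (statistic 2.53, p = 0.00055, q = 0.0258 in the authors' deposited table). A log2 fold change below this one was seen in 98.3% of loci tested. On the log2(FPKM + 1) scale the difference in Icosl was 0.64. The level is low in both groups: 18.98% of loci tested were lower than Icosl with MEK1-hi and 9.64% with MEK1-low exosomes. Among the 2973 loci whose higher value was from 1 to under 5 FPKM, 37 (1.24%) were called, and the smallest absolute log2 fold change among those was 0.63. The ratio of Icosl to Pdcd1lg2 was 1.54 with MEK1-hi and 0.547 with MEK1-low exosomes, and that of Icosl to Cd80 was 0.982 with MEK1-hi and 0.370 with MEK1-low exosomes. The call ended under a threshold of 0.01 on q. It also ended where a two-sided normal p of 0.0116 was taken from the deposited statistic of Icosl and adjusted over all loci tested by the Benjamini-Hochberg method (q = 0.610), a reading that called 94 loci in place of 309.

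None of the 6 tested genes within 100 kb of Icosl passed the test. Dnmt3l, a cofactor of DNA methylation in germ cells and the nearest of them, stood at 16.1 FPKM with MEK1-hi and 20.9 FPKM with MEK1-low exosomes. Pfkl, a phosphofructokinase of glycolysis, stood at 22.9 FPKM with MEK1-hi and 27.1 FPKM with MEK1-low exosomes. Pwp2, a factor of ribosome assembly, stood at 12.4 FPKM with MEK1-hi and 9.20 FPKM with MEK1-low exosomes (p = 0.00745, q = 0.181 in the authors' deposited table). Cuffdiff thus called 0 of the 6, and Pwp2 was the 1 with an unadjusted p under 0.05, beside 2.44% and 8.66% of all loci tested. The log2 fold changes of the 6 ran from -0.38 to 0.43.

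The PD-1 ligands had lower values without passing the test. Cd274 (ENSMUSG00000016496), which encodes PD-L1, lies on chromosome 19 from 29367455 to 29388095 and stood at 62.1 FPKM with MEK1-hi and 80.1 FPKM with MEK1-low exosomes. Its log2 fold change was -0.37, with p = 0.0153 before and q = 0.292 after adjustment in the authors' deposited table. It was 1 of 2 members under an unadjusted p of 0.05, beside Icosl, where 8.66% of all loci tested were. Among the 2032 loci at 50 FPKM or more, 105 (5.17%) were called, and the smallest absolute log2 fold change called was 0.49, so the difference in Cd274 was smaller than any called at its level. An antisense gene, AC119228.1, overlaps Cd274 and was at 3.18 FPKM with MEK1-hi and 4.02 FPKM with MEK1-low exosomes. The kit was stranded, but the strand setting used for counting is not given, so reads of the pair cannot be assumed apart.

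Pdcd1lg2 (ENSMUSG00000016498), which encodes PD-L2, lies on chromosome 19 from 29410919 to 29471161, 22824 bases past Cd274, and was the least abundant member with MEK1-hi exosomes. Its level was 1.46 FPKM with MEK1-hi and 1.99 FPKM with MEK1-low exosomes (log2 fold change -0.45, q = 0.999 in the authors' deposited table). It too has an antisense gene, A930007I19Rik, at 3.19 FPKM with MEK1-hi and 3.43 FPKM with MEK1-low exosomes, and the same limit holds. PD-L1 transcripts exceeded those of PD-L2 by 42.6-fold with MEK1-hi and 40.2-fold with MEK1-low exosomes. All 6 tested genes within 100 kb of Cd274 had lower values with MEK1-hi exosomes, beside 49.8% of all loci tested. They lay between -0.48 and -0.10 on the log2 scale. The 6 include Pdcd1lg2 itself and both antisense genes, so they are not separate from the pair. Cuffdiff called 0 of them, with 0 under an unadjusted p of 0.05, beside 2.44% and 8.66% of all loci tested. Also among them are Plgrkt, a plasminogen receptor, at 72.7 FPKM with MEK1-hi and 83.4 FPKM with MEK1-low exosomes, and Jak2, the kinase of the interferon-gamma receptor, at 10.7 FPKM with MEK1-hi and 12.5 FPKM with MEK1-low exosomes. Zfp36, which encodes tristetraprolin and was looked up after the values were seen, stood at 114 FPKM with MEK1-hi and 117 FPKM with MEK1-low exosomes (q = 0.999 in the authors' deposited table).

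The CD28 and CTLA-4 ligands did not pass the test either. Cd86 (chromosome 16, 36603869 to 36666081, minus strand) stood at 19.5 FPKM with MEK1-hi and 21.8 FPKM with MEK1-low exosomes, a log2 fold change of -0.16. Cd80 (chromosome 16, 38455561 to 38496335) stood at 2.29 FPKM with MEK1-hi and 2.94 FPKM with MEK1-low exosomes, or -0.36 as a log2 fold change; the authors' deposited table gives p = 0.175 and q = 0.938. Cd86 was the main B7 transcript of the pair, 8.49-fold above Cd80 with MEK1-hi and 7.41-fold above it with MEK1-low exosomes. Cd80, Pdcd1lg2 and Icosl were the 3 members whose higher value lay from 1 to under 5 FPKM. The median absolute log2 fold change of all loci in that band was 0.26, against 0.13 both from 5 to under 50 FPKM and at 50 FPKM or more.

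Cd40 (chromosome 2, 165055627 to 165072948), the receptor through which helper T cells license macrophages, stood at 14.3 FPKM with MEK1-hi and 12.9 FPKM with MEK1-low exosomes. Its log2 fold change of 0.15 did not pass (p = 0.485, q = 0.999 in the authors' deposited table). The smallest absolute log2 fold change called from 5 to under 50 FPKM was 0.48.

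The other 4 members had the smallest absolute log2 fold changes of the 10. Vsir, which encodes VISTA, stood at 163 FPKM with MEK1-hi and 158 FPKM with MEK1-low exosomes, the highest level of the 10 and above 95.7% of loci tested with MEK1-hi and 95.4% with MEK1-low exosomes. Vsir lies on chromosome 10 from 60346851 to 60372684, inside the gene of the cadherin Cdh23 on the opposite strand, which was at 0.4001 FPKM with MEK1-hi and 0.614 FPKM with MEK1-low exosomes. Lgals9, which encodes galectin-9 (chromosome 11, 78962974 to 78984946, minus strand), stood at 134 FPKM with MEK1-hi and 123 FPKM with MEK1-low exosomes. Havcr2, which encodes TIM-3 (chromosome 11, 46454935 to 46481255), stood at 32.7 FPKM with MEK1-hi and 32.1 FPKM with MEK1-low exosomes. Cd47 (chromosome 16, 49800533 to 49915010) stood at 90.9 FPKM with MEK1-hi and 85.1 FPKM with MEK1-low exosomes. These 4 log2 fold changes lay between 0.03 for Havcr2 and 0.12 for Lgals9, with q = 0.999 for each in the authors' deposited table.

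**Figure D2:**
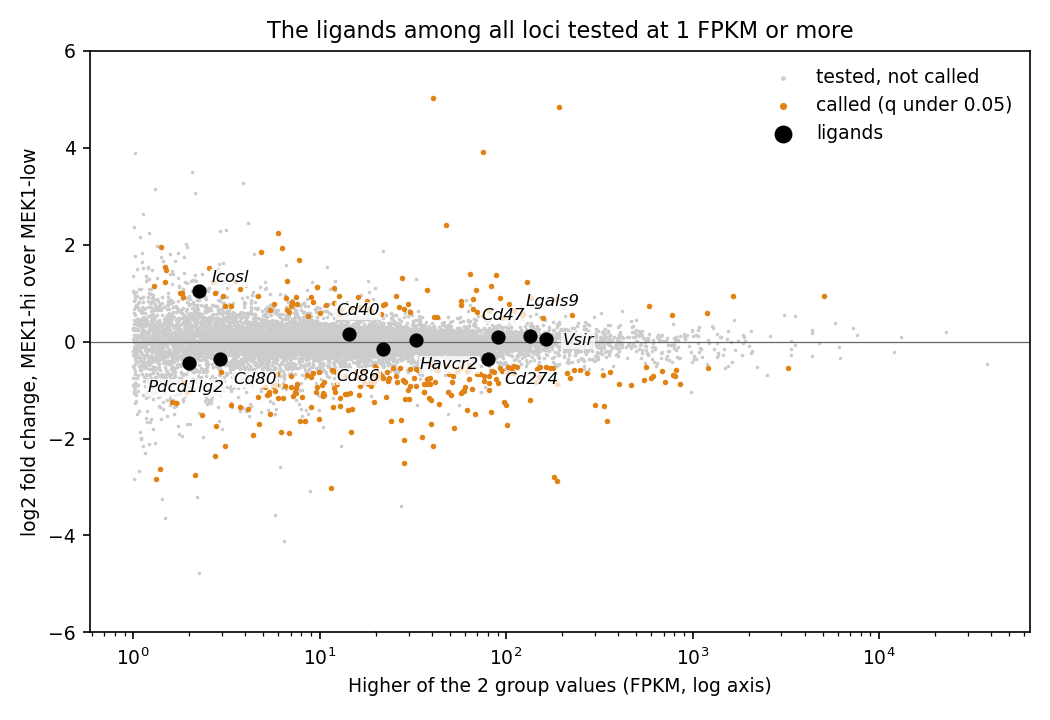
Log2 fold change (MEK1-hi over MEK1-low) against the higher of the group values in FPKM on a log axis, for loci tested at 1 FPKM or more and above 0 in both groups. Icosl (1.05) is the 1 black ligand point among the called loci (orange), while Cd274 (-0.37) sits between zero and the called loci of its level.

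Across the 10 members, the order of levels with MEK1-hi exosomes was Vsir, Lgals9, Cd47, Cd274, Havcr2, Cd86, Cd40, Cd80, Icosl and Pdcd1lg2. With MEK1-low exosomes the first 8 places were the same, and Pdcd1lg2 stood above Icosl. Without values per sample, which neighbours in this order differ beyond the spread of samples was not tested. The plot of level against fold change shows 4 members at 50 FPKM or more, 3 from 5 to under 50 FPKM and 3 under 5 FPKM. Dendritic cells carry the same ligands at high levels, and their 8 markers summed to 43.6 FPKM with MEK1-hi and 50.8 FPKM with MEK1-low exosomes. Of this, Batf3 made 32.9 FPKM with MEK1-hi and 37.8 FPKM with MEK1-low exosomes. Fscn1 made 5.87 FPKM with MEK1-hi and 8.25 FPKM with MEK1-low exosomes. Clec9a, in a locus shared with Clec1b, made 4.35 FPKM with MEK1-hi and 3.97 FPKM with MEK1-low exosomes. Both were above Icosl, Cd80 and Pdcd1lg2 in each group. Ccr7 made 0.0996 FPKM with MEK1-hi and 0.357 FPKM with MEK1-low exosomes. Zbtb46 made 0.168 FPKM with MEK1-hi and 0.219 FPKM with MEK1-low exosomes, Xcr1 and Flt3 less than Zbtb46, and Cd209a was listed at 0. Cuffdiff called 0 of the 3 dendritic markers tested, with 0 under an unadjusted p of 0.05, beside 2.44% and 8.66% of all loci tested. The part of dendritic cells in the ligand values was not tested.

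Among other ligands of antigen-presenting cells, of 19 tested among 31, 1 rose and 1 fell, beside 0.751% and 1.69% of all loci tested. Values were higher in 5 and lower in 14, or lower in 12 on the TPM and upper-quartile scales, beside 49.8% lower among all loci tested. Lgals1, which encodes galectin-1, an inhibitor of T cell responses, rose by 0.59 on the log2 scale to 1201 FPKM with MEK1-hi exosomes, against 798 FPKM with MEK1-low exosomes (q = 0.00349 in the authors' deposited table). That call, like the one of Icosl, ended with a normal p taken from the statistic in the authors' deposited table (adjusted p = 0.367). Icam1, the adhesion ligand of the T cell integrin LFA-1, fell to 21.4 FPKM with MEK1-hi exosomes, against 38.9 FPKM with MEK1-low exosomes (log2 fold change -0.87, q = 0.00349 in the authors' deposited table). Lgals3, the most abundant, stood at 4665 FPKM with MEK1-hi and 4776 FPKM with MEK1-low exosomes, and Cd48, a ligand of CD2 and CD244, at 119 FPKM with MEK1-hi and 128 FPKM with MEK1-low exosomes. Vsig4, a macrophage complement receptor that restrains T cells and was picked out after its values were seen, was at 0.858 FPKM with MEK1-hi and 0.211 FPKM with MEK1-low exosomes, short of the threshold (p = 0.0192, q = 0.330 in the authors' deposited table). The B7 relative Cd276, also picked out after its values were seen, stood at 16.1 FPKM with MEK1-hi and 19.5 FPKM with MEK1-low exosomes, while Vtcn1, Tnfsf18 and Cd70 were listed at 0. The list's median log2 difference was -0.09.

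Of 14 T cell receptors for these ligands, 2 had been tested and none was called by Cuffdiff, with 0 under an unadjusted p of 0.05. Those shares were 2.44% and 8.66% over all loci tested. Lag3 stood at 2.56 FPKM with MEK1-hi and 2.59 FPKM with MEK1-low exosomes, Tnfrsf4 at 1.75 FPKM with MEK1-hi and 2.07 FPKM with MEK1-low exosomes, and Ctla4, Cd40lg, Btla and Cd226 were listed at 0 in both groups. Icos itself was at 0.0110 FPKM with MEK1-hi exosomes and listed at 0 with MEK1-low exosomes.

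Of the genes that signal behind CD40, with 17 tested, 3 fell and 0 rose, beside 1.69% of all loci tested that fell and 0.751% that rose. Values were lower in 16 of the 17, or 13 on the TPM and upper-quartile scales, beside 49.8% of all loci tested. Traf1, an adaptor induced by NF-kB, was at 2.53 FPKM with MEK1-hi and 7.87 FPKM with MEK1-low exosomes. Relb and Nfkb2, the subunits of the non-canonical NF-kB pathway that CD40 engages, were at 16.2 and 20.7 FPKM with MEK1-hi exosomes, against 30.6 and 37.8 FPKM with MEK1-low exosomes (q = 0.00349 for all 3 in the authors' deposited table). Map3k14, the kinase that starts this pathway, named for that role, shares its locus with 1700028N14Rik and stood at 8.19 FPKM with MEK1-hi and 9.37 FPKM with MEK1-low exosomes. Ikbkg, Nfkb1 and Ikbkb, the most abundant members, stood at 57.1, 44.1 and 46.4 FPKM with MEK1-hi exosomes and 64.1, 55.2 and 53.6 FPKM with MEK1-low exosomes. The list's median log2 difference was -0.20.

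The interferon-gamma axis that drives PD-L1 had 12 genes tested, of which 1 fell and 0 rose, beside 1.69% and 0.751% of all loci tested. Values were lower in 10 of the 12 on every scale tried, beside 49.8% of all loci tested. Socs3, a feedback inhibitor of cytokine receptors, fell to 5.66 FPKM with MEK1-hi exosomes, against 14.9 FPKM with MEK1-low exosomes (log2 fold change -1.39, q = 0.00349 in the authors' deposited table). Irf1, the transcription factor that binds the PD-L1 promoter after interferon and picked out after its values were seen, stood at 33.1 FPKM with MEK1-hi and 46.5 FPKM with MEK1-low exosomes and missed the threshold (p = 0.00255, q = 0.0853 in the authors' deposited table). Of the receptor's chains, Ifngr1 stood at 85.1 FPKM with MEK1-hi and 78.0 FPKM with MEK1-low exosomes, and Ifngr2 at 56.8 FPKM with MEK1-hi and 76.6 FPKM with MEK1-low exosomes. The list's median log2 difference was -0.18, and Irf8 was not analysed here.

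Factors that act on PD-L1 protein were called by Cuffdiff in 0 of 15 cases, with 0 under an unadjusted p of 0.05. Beside this, 2.44% of all loci tested were called and 8.66% had an unadjusted p under 0.05. Cmtm6, which protects PD-L1 from lysosomal breakdown, stood at 61.3 FPKM with MEK1-hi and 68.4 FPKM with MEK1-low exosomes, and Stt3a, a subunit of the enzyme that glycosylates it, at 115 FPKM with MEK1-hi and 105 FPKM with MEK1-low exosomes. The list ran from -0.25 to 0.20 on the log2 scale, with a median log2 difference of -0.01.

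On the CD47 axis, 1 of 10 tested genes rose and 0 fell, beside 0.751% and 1.69% of all loci tested. Qpct, a secreted glutaminyl cyclase, rose 1.85-fold to 6.58 FPKM with MEK1-hi exosomes, against 3.55 FPKM with MEK1-low exosomes (q = 0.0110 in the authors' deposited table). This call ended at a q threshold of 0.01 and with the normal p of the statistic in the authors' deposited table (adjusted p = 0.439). Its relative Qpctl, the Golgi enzyme that modifies CD47 for binding by SIRP alpha, stood at 5.90 FPKM with MEK1-hi and 5.67 FPKM with MEK1-low exosomes. Calr, a signal for engulfment when on the cell surface, stood at 798 FPKM with MEK1-hi and 762 FPKM with MEK1-low exosomes, and Lrp1, its receptor, at 362 FPKM with MEK1-hi and 285 FPKM with MEK1-low exosomes. Sirpa itself, the receptor of CD47, stood at 724 FPKM with MEK1-hi and 762 FPKM with MEK1-low exosomes, and Ptpn6, the phosphatase it recruits, at 252 FPKM with MEK1-hi and 313 FPKM with MEK1-low exosomes (p = 0.0338, q = 0.468 in the authors' deposited table). On this axis the median log2 difference was 0.05. Partners of galectin-9 and TIM-3 were called by Cuffdiff in 0 of 8 tested cases, also with 0 under an unadjusted p of 0.05, beside 2.44% and 8.66% of all loci tested. Values were higher in 7 of the 8 on every scale tried, beside 50.2% of all loci tested. P4hb, a disulfide isomerase that binds galectin-9 at the cell surface, stood at 250.1 FPKM with MEK1-hi and 226 FPKM with MEK1-low exosomes, and the kinase gene Lyn at 67.2 FPKM with MEK1-hi and 58.7 FPKM with MEK1-low exosomes. That list's median log2 difference was 0.12.

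**Figure D3:**
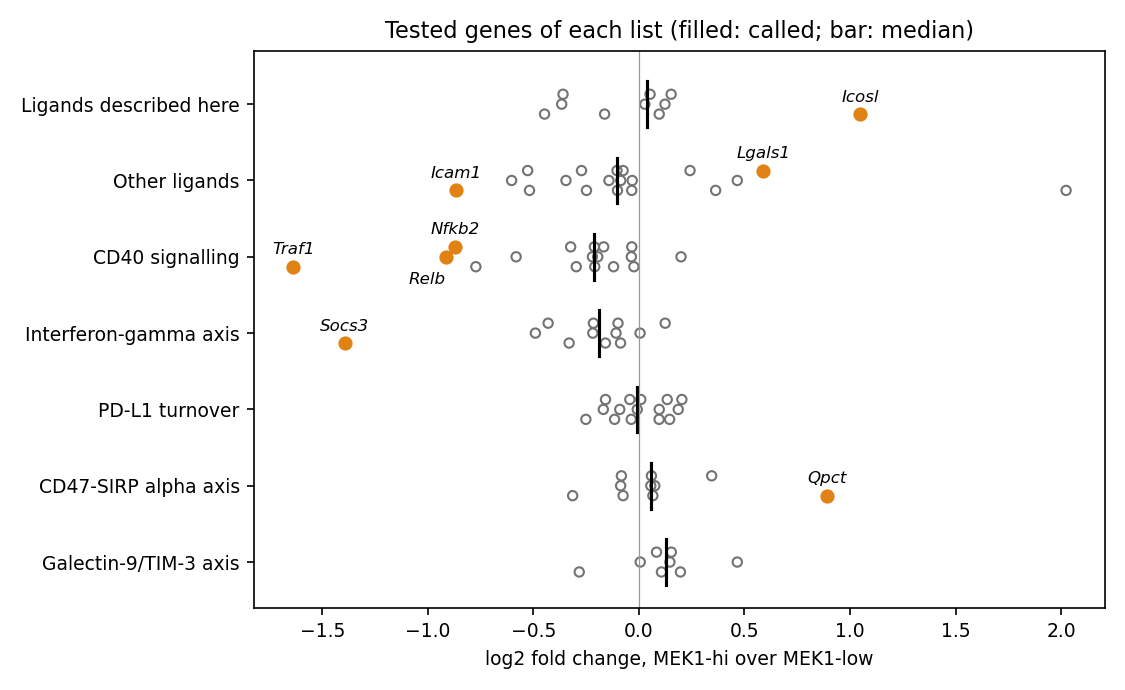
Log2 fold change (MEK1-hi over MEK1-low, no pseudocount) of each tested gene in the ligand list and 6 lists around it; filled orange points are called at q under 0.05, open points are not, and the bar is the median of the list. The called points lie on the higher side for Icosl, Lgals1 and Qpct and on the lower side for Icam1, Traf1, Relb, Nfkb2 and Socs3.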

How the data were processed

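RNA of 4 samples, 2 for each treatment, was sequenced from stranded mRNA libraries made with 750 ng of RNA, per the labels' protocols. Tools named in the submitters' processing notes are TopHat, Cufflinks and Cuffdiff, with FastQC 0.73 and the build mm10, but no settings. The authors deposited 1 FPKM value per group, a test score (the statistic), a p-value and a q-value for each locus, per the file headers. The columns read MEK1 exo and GFP exo, and the GFP column was taken as MEK1-low from the treatment label. Symbols were matched by Ensembl identifier, version dropped, and positions, overlaps and 3′ UTRs came from GENCODE M21 (longest coding transcript). Adjusting the authors' p-value over loci tested (Benjamini-Hochberg, checked on simulated data) gave their q-value to within 5.19e-07. Fold changes were recomputed from FPKM, and list medians used log2(FPKM + 1), which understates the change of low genes. Python 3.11.15, pandas 2.3.3 and scipy 1.17.1 were used. Members and lists were chosen with earlier results of these data known. The genes named were all 10 members and, from each list, called genes (up to 4) and the tested genes of highest mean, besides those said to be otherwise chosen. Some genes that this rule names are not reported here. Alternatives covered thresholds, pseudocounts, scaling, joined loci and the statistic. Since separate cultures or animals are not stated, the p-values may measure technical spread alone.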

Additional observations from a re-analysis of the deposited data

How the results depend on the processing

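Of the 10 ligand genes, 1 was called (Icosl). Icosl stayed the called gene with p-values adjusted over loci at 1 FPKM or more (q = 0.0241). It also stayed at a q threshold of 0.10, with an absolute statistic of at least 2 required, and with joined loci left out. Those last settings could not remove it, since its q was 0.0258, its statistic 2.53 and its locus held a single gene. The count was 0 at a q threshold of 0.01, 2 at an unadjusted p under 0.05 (Icosl and Cd274), and 0 with a normal p taken from the deposited statistic, an alternative chosen after seeing the data. The lists around the ligands had 7 called among 81 distinct loci tested, 14 at an unadjusted p under 0.05, and from 5 to 8 under the other alternatives; the normal p kept the 5 lower and neither of the 2 higher. The causes were not tested. Over all loci tested, 2.44% were called as deposited and 8.66% had an unadjusted p under 0.05. The median log2 difference of the ligands lay between 0.04 and 0.08 under every alternative. Of 40 values for single ligands, 0 changed sign, but these alternatives could not have reversed one. A pseudocount added to both groups cannot reverse a difference. Before a pseudocount is added, either scaling raises every log2 fold change by 0.04. That is less than the smallest lower value (Cd86, -0.16). Sizes did move for the members of low level. The log2 difference of Icosl was 0.64 with a pseudocount of 1 FPKM, 0.98 with 0.1 FPKM and 1.05 with none. With a pseudocount it was 0.77 on the TPM scale and 0.66 on the upper-quartile scale. Pdcd1lg2 went from -0.28 with a pseudocount of 1 FPKM to -0.45 with none, and Cd80 from -0.26 to -0.36. No paired analysis was possible because the table holds 1 value per group, and for the same reason no sample could be left out. Depth per sample is unknown, so how far counting error limits Icosl, Cd80 and Pdcd1lg2, all under 3 FPKM, cannot be given.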
